A study of Caenorhabditis elegans with 15 samples.

Results

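The body shape collagens described here are 10 cuticle collagen genes of *C. elegans*, taken by name: *dpy-2*, *dpy-3*, *dpy-7*, *dpy-8*, *dpy-10*, *sqt-1*, *sqt-3*, *rol-6*, *bli-1* and *bli-2*. All 10 were found among the 21882 genes of the count tables, under the gene symbols that the files pair with the identifiers. Their values were followed in whole young adults of the *fbxa-215(syb4404)* mutant (strain SX3678) and of the wild-type strain N2, in a study that asked whether the F-box protein FBXA-215 regulates gene expression at the level of transcription. There were 3 mutant and 4 N2 libraries of animals grown at 25 °C and collected about 36 h after plating, and 4 mutant and 4 N2 libraries of animals grown at 20 °C and collected 48 h after plating. Parents of all groups were kept at 20 °C and all animals were fed HB101 bacteria. The mutant line carries a deletion of *fbxa-215* and was outcrossed to N2, and it is a single strain, so that other differences between the strains cannot be told apart from the deletion. Growth temperature, hours after plating and growth batch changed together and cannot be told apart either.

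The nematode cuticle is an extracellular matrix made largely of collagens, which the underlying epidermis secretes anew at every moult. Its collagen genes are transcribed in ordered waves within each moulting cycle, and no moult follows the one into adulthood. The furrow collagens DPY-2, DPY-3, DPY-7, DPY-8 and DPY-10 are needed for the circumferential furrows between annuli, and animals lacking them are short and stout. SQT-1, SQT-3 and ROL-6 act together in body form, and their alleles give squat, dumpy or rolling animals. BLI-1 and BLI-2 belong to the struts that join the layers of the adult cuticle, and their loss blisters the cuticle.

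Library totals ranged from 10842750 to 28391911 counts, and all but mutant replicate 4 at 20 °C were at or below 16150457. The deleted gene *fbxa-215* had 0 to 2 counts in the mutant libraries and 1364 to 2297 in the N2 libraries, so each library matched the strain in its label. Levels are given as CPM, counts per 1e6 of the library's total after scaling by the trimmed mean of M values (TMM), and 3 counts corresponded to 0.103 to 0.278 CPM, a floor that covers counting error only. N2 replicate 4 at 20 °C stood apart from its group for these genes, as described below. The study's methods call the mRNA-seq replicates biological, but the labels do not say whether they came from separate cultures, and p-values measure the spread between these samples. In RNA of whole animals, fewer epidermal cells and less RNA per cell cannot be told apart.

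On the WBcel235 genome 6 members lie on chromosome II, 3 on X and 1 on V. On chromosome II are *dpy-10* (6710149 to 6712227, minus strand), *dpy-2* (6714292 to 6715971, plus), *bli-2* (5651394 to 5652434, minus), *rol-6* (8733050 to 8734239, plus), *bli-1* (10708960 to 10712156, plus) and *sqt-1* (11336693 to 11337837, minus). On X are *dpy-3* (2144605 to 2145647, minus), *dpy-8* (5148804 to 5150476, minus) and *dpy-7* (7536467 to 7537792, minus), and on V is *sqt-3* (12352745 to 12354320, plus). All are protein-coding, with 2 to 5 exons and coding lengths from 906 bp in *sqt-3* to 2847 bp in *bli-1*. *dpy-2* and *dpy-10* are neighbours separated by 2064 bp, while the other pairs on a chromosome are at least 624536 bp apart. The libraries were not stranded, and the values of the 3 members that overlap a counted gene on the opposite strand are uncertain: *dpy-8* with *C31H2.14*, *bli-1* with *dph-2* and *bli-2* with *zyg-1*. *dph-2* was at 21.9 to 35.5 CPM and *zyg-1* at 35.4 to 59.9 CPM, above every value of the collagens opposite them. *C31H2.14* was at 0.494 to 3.998 CPM. In addition, *dpy-10* overlaps *T14B4.19*, a protein-coding gene on the same strand, and *sqt-3* overlaps *F23H12.13*, a non-coding RNA gene on the opposite strand. Neither of these genes was in the count tables. Whether their reads entered the values of *dpy-10* and *sqt-3* was not tested.

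These collagens were weakly expressed in young adults. Counts of a member in a library ran from 0 to 297, and mean levels over the 15 libraries from 0.417 CPM for *dpy-3*, above 0.179% of the 14000 genes tested over all libraries, to 10.7 CPM for *sqt-3*, above 43.9% of them. Per kilobase of coding sequence, *sqt-3* was the most abundant at 11.8 ± 6.23 CPM per kb (SD, n = 15), followed by *sqt-1* at 3.43 ± 3.19 and *bli-2* at 2.35 ± 2.34 CPM per kb. Then came *dpy-10* at 2.09 ± 0.485, *rol-6* at 1.59 ± 1.18, *dpy-2* at 1.54 ± 0.842, *bli-1* at 0.986 ± 0.776, *dpy-8* at 0.899 ± 0.614, *dpy-7* at 0.659 ± 0.583 and *dpy-3* at 0.459 ± 0.437 CPM per kb. From *sqt-1* down, neighbours in this order differed by less than the larger of their SDs, and *sqt-3* differed from *sqt-1* by more than either SD. In 32 of the 40 combinations of member and group, the counts had more than 3 times the variance of counting error alone (chi-square per degree of freedom).

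**Figure D1:**
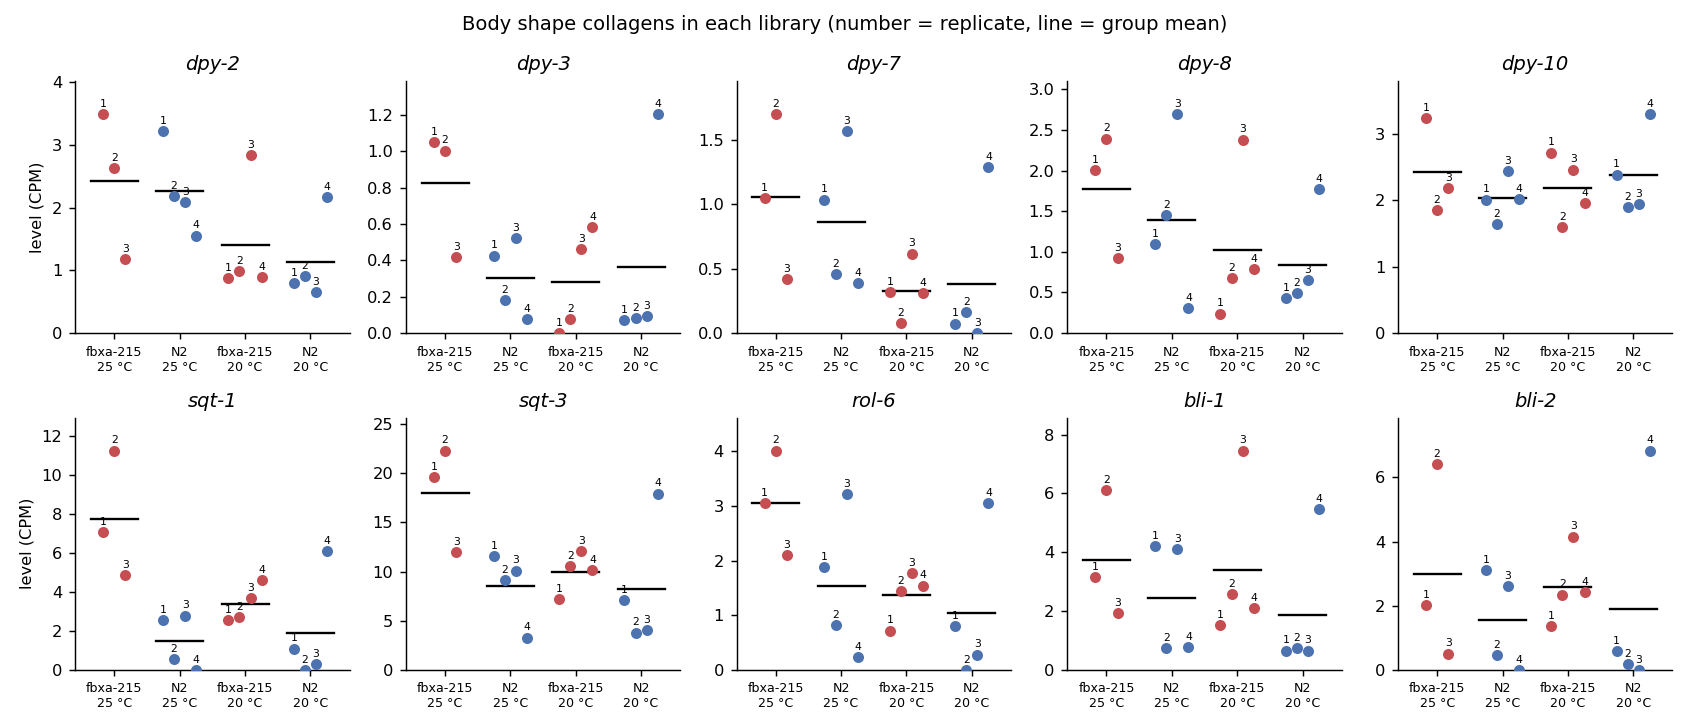
Level of each of the 10 body shape collagens in each library, in CPM on axes that start at 0. Points are libraries numbered by replicate, red for *fbxa-215* mutants and blue for N2, and black lines are group means. N2 replicate 4 at 20 °C is the highest library of its group in all 10 panels, and the mutants at 25 °C have the highest group mean in all 10.

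Among the furrow collagens, *dpy-2* and *dpy-10* had the highest mean levels, and *dpy-8*, *dpy-7* and *dpy-3* followed in that order. *dpy-2* was at 3.50, 2.63 and 1.17 CPM in mutants and 3.22, 2.18, 2.09 and 1.55 CPM in N2 at 25 °C (replicates in order). At 20 °C it was at 0.878, 0.984, 2.84 and 0.891 CPM in mutants and 0.794, 0.906, 0.648 and 2.17 CPM in N2. All 7 libraries at 25 °C were above 6 of the 8 libraries at 20 °C, the exceptions being mutant replicate 3 and N2 replicate 4, and the strains overlapped at both temperatures.

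*dpy-10* was at 3.23, 1.85 and 2.18 CPM in mutants and 2.01, 1.64, 2.44 and 2.02 CPM in N2 at 25 °C. Its values at 20 °C were 2.71, 1.59, 2.46 and 1.95 CPM in mutants and 2.38, 1.89, 1.94 and 3.30 CPM in N2. All 15 libraries lay between 1.59 and 3.30 CPM and no group was set apart. This evenness was not shared by the other members: the SD of log2(CPM + 0.25) within groups was 0.307 for *dpy-10* and from 0.618 for *dpy-2* to 1.62 for *bli-2* in the rest. Against the genes tested whose mean lay within 2-fold of its own, *dpy-10* had a larger SD than 39.1% of 2739 genes, and each of the other 9 members had a larger SD than 93.3% to 99.8% of such genes.

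The remaining furrow collagens *dpy-3*, *dpy-7* and *dpy-8* had at most 17, 22 and 31 counts in a library. *dpy-8* was at 2.01, 2.39 and 0.923 CPM in mutants and 1.095, 1.45, 2.70 and 0.311 CPM in N2 at 25 °C, and at 0.239, 0.681, 2.38 and 0.788 CPM in mutants and 0.433, 0.494, 0.648 and 1.77 CPM in N2 at 20 °C. *dpy-7*, the furrow collagen whose promoter is widely used to drive epidermal expression, was at 1.05, 1.70 and 0.420 CPM in mutants and 1.03, 0.454, 1.57 and 0.389 CPM in N2 at 25 °C, and at 0.319, 0.0757, 0.615 and 0.308 CPM in mutants and 0.0722, 0.165, 0 and 1.29 CPM in N2 at 20 °C. For both genes the strains overlapped at each temperature. *dpy-3* was at 1.05, 1.00 and 0.420 CPM in mutants and 0.426, 0.182, 0.522 and 0.0777 CPM in N2 at 25 °C, and at 0, 0.0757, 0.461 and 0.583 CPM in mutants and 0.0722, 0.0824, 0.0925 and 1.21 CPM in N2 at 20 °C. Mutant replicate 1 at 20 °C had 0 counts of *dpy-3*, which allows up to 0.239 CPM, and N2 replicate 3 at 20 °C had 0 counts of *dpy-7*, which allows up to 0.278 CPM.

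The SQT and ROL collagens included the most abundant member and those with the widest separation of the strains. *sqt-3* was at 19.6, 22.3 and 11.999 CPM in mutants, against 11.6, 9.09, 10.1 and 3.26 CPM in N2 at 25 °C, so that every mutant library was above every N2 library. At 20 °C it was at 7.18, 10.5, 12.1 and 10.2 CPM in mutants and 7.08, 3.79, 4.07 and 17.9 CPM in N2, where N2 replicate 4 alone exceeded the mutants. *sqt-1* was at 7.08, 11.3 and 4.87 CPM in mutants, against 2.56, 0.545, 2.79 and 0 CPM in N2 at 25 °C, again without overlap. Its values at 20 °C were 2.55, 2.72, 3.69 and 4.59 CPM in mutants and 1.08, 0, 0.278 and 6.11 CPM in N2. Except for N2 replicate 4 at 20 °C, no N2 library at either temperature reached 3 CPM of *sqt-1*, and 2 of them had 0 counts (floors 0.233 CPM in replicate 4 at 25 °C and 0.247 CPM in replicate 2 at 20 °C).

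*rol-6*, an allele of which is a common dominant transformation marker that makes worms roll, was at 3.06, 4.02 and 2.10 CPM in mutants and 1.89, 0.818, 3.22 and 0.233 CPM in N2 at 25 °C. At 20 °C it was at 0.718, 1.44, 1.77 and 1.54 CPM in mutants and 0.794, 0, 0.278 and 3.06 CPM in N2. The strains overlapped at 25 °C through N2 replicate 3 and at 20 °C through N2 replicates 1 and 4. The summed level of the 3 genes was between 18.96 and 37.6 CPM in mutants and between 3.50 and 16.1 CPM in N2 at 25 °C. It was between 10.5 and 17.5 CPM in mutants and between 3.79 and 27.1 CPM in N2 at 20 °C.

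Of the strut collagens, *bli-2* varied more between replicates than any other member, with the SD of 1.62 given above, and *bli-1* (SD 1.11) varied less than *sqt-1* (1.41). *bli-1* was at 3.15, 6.10 and 1.93 CPM in mutants and 4.20, 0.727, 4.09 and 0.777 CPM in N2 at 25 °C, and at 1.52, 2.57, 7.46 and 2.09 CPM in mutants and 0.650, 0.741, 0.648 and 5.47 CPM in N2 at 20 °C. *bli-2* was at 2.01, 6.41 and 0.503 CPM in mutants and 3.10, 0.454, 2.61 and 0 CPM in N2 at 25 °C, and at 1.36, 2.35, 4.15 and 2.43 CPM in mutants and 0.578, 0.165, 0 and 6.84 CPM in N2 at 20 °C. At 25 °C replicates of one strain differed more than the strains did. At 20 °C all 4 mutant libraries were above N2 replicates 1 to 3 for both genes, while N2 replicate 4 lay above 3 of the mutant libraries for *bli-1* and above all 4 for *bli-2*. The 0 counts of *bli-2* in N2 replicate 4 at 25 °C and N2 replicate 3 at 20 °C allow up to 0.233 and 0.278 CPM.

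The members other than *dpy-10* were high and low in the same libraries. Over the 15 libraries, the pairwise Pearson correlations of log2(CPM + 0.25) of the 9 members other than *dpy-10* were between 0.45 and 0.94 with a median of 0.76 (36 pairs), and within groups, after removing the group means, between 0.56 and 0.98 with a median of 0.79. The 9 pairs with *dpy-10* had correlations between 0.24 and 0.44. The points of all pairs share their libraries and depth, and the values are a description. N2 replicate 4 at 20 °C was the highest library of its group for 10 of the 10 members, whereas it was the highest for 25.2% of all 14000 genes tested. Its *bli-2* level was 11.8 times that of the next N2 library, its *sqt-1* level 5.64 times and its *sqt-3* level 2.53 times. In the other groups, mutant replicate 2 at 25 °C was the highest for 7 members and mutant replicate 3 the lowest for 9, N2 replicate 4 at 25 °C was the lowest for 8, and among mutants at 20 °C replicate 3 was the highest for 7 and replicate 1 the lowest for 8.

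**Figure D2:**
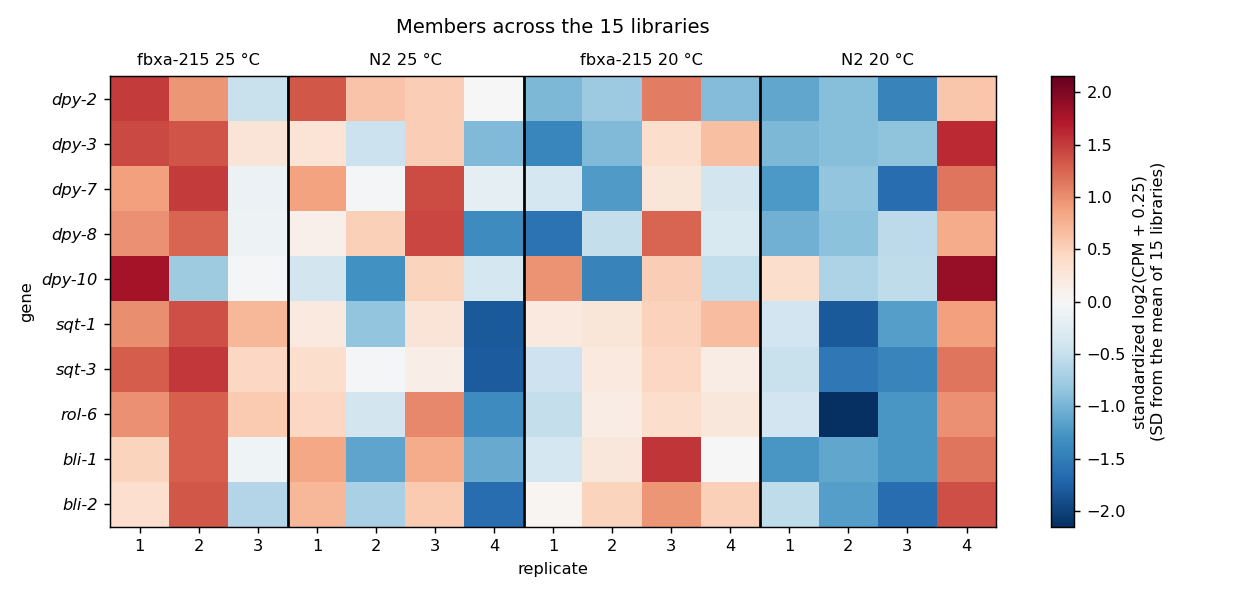
Standardized log2(CPM + 0.25) of the 10 members (rows) in the 15 libraries (columns, by group and replicate). Colour gives the distance from the gene's mean over the libraries in SDs, red above and blue below. Columns tend to be of one colour, as in N2 replicate 4 at 20 °C and mutant replicate 2 at 25 °C, with *dpy-10* the least like the others.

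The genes outside the list whose log2(CPM + 0.25) was most like the mean standardized value of the members over the 15 libraries were *F30H5.3* (Pearson 0.90), *lpr-4* (0.90), *rol-8* (0.89), *nas-33* (0.89) and *clec-180* (0.88). *rol-8* is another body shape collagen, *lpr-4* encodes a lipocalin-related protein and *nas-33* an astacin-like metalloprotease. In N2 replicate 4 at 20 °C *rol-8* was at 7.24 CPM, against 0.577 to 1.44 CPM in the other N2 libraries of that temperature.

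At 25 °C the mutants had a higher mean than N2 for all 10 members, but no member passed an FDR of 0.05. The clearest differences were those of *sqt-1*, at 7.74 ± 3.25 CPM in mutants (SD, n = 3) and 1.47 ± 1.41 CPM in N2 (SD, n = 4), and of *sqt-3*, at 17.96 ± 5.34 CPM in mutants and 8.50 ± 3.64 CPM in N2. These were 2 of the 10 members without overlap between strains, higher in mutants in both, beside 13.5% of all 13510 genes tested. The log2 fold change of *sqt-1* was 2.35 (SE 0.82, 95% interval 0.31 to 4.39), with an unadjusted p of 0.031 and an FDR of 0.13 (edgeR quasi-likelihood test, Benjamini-Hochberg adjusted over all genes tested). For *sqt-3* it was 1.07 (SE 0.42, 95% interval 0.04 to 2.11; unadjusted p 0.044, FDR 0.16).

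The other members tested at 25 °C had log2 fold changes from 0.08 for *dpy-2* to 0.99 for *rol-6* with intervals that all included 0. *rol-6* averaged 3.06 ± 0.959 CPM in mutants and 1.54 ± 1.31 CPM in N2. *bli-1* averaged 3.73 ± 2.14 CPM in mutants and 2.45 ± 1.96 CPM in N2, and *bli-2* 2.97 ± 3.07 CPM in mutants and 1.54 ± 1.54 CPM in N2. *dpy-3*, not tested here, averaged 0.824 ± 0.351 CPM in mutants and 0.302 ± 0.207 CPM in N2. Its log2 fold change in 1 edgeR fit of 15 libraries was 1.40 (SE 0.87, FDR 0.31). In all, 9 members were tested (*dpy-3* had too few counts for the filter), and 0 passed the FDR of 0.05 beside 12.1% of all genes tested (6.97% higher, 5.12% lower). At an unadjusted p under 0.05 there were 2, and DESeq2 gave 0 of 8 members past the same adjusted threshold (lowest adjusted p = 0.12) and 1 unadjusted. The median log2 fold change of the 9 was 0.58, beside 0.0038 over all genes. As the members varied together from library to library, their shared sign is not 9 separate observations.

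**Figure D3:**
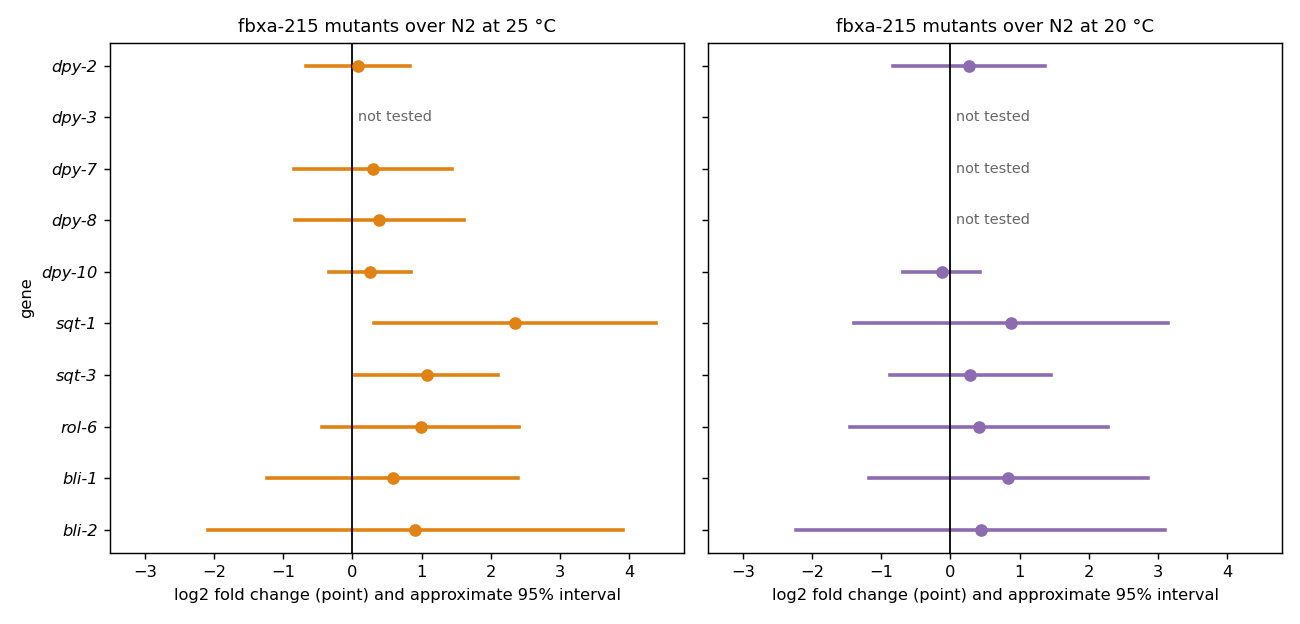
Log2 fold change of mutants over N2 for each member at 25 °C (left) and 20 °C (right), with approximate 95% intervals from edgeR. Members removed by the filter on low counts are marked as not tested. The intervals of *sqt-1* and *sqt-3* at 25 °C lie above 0, and every other interval crosses 0.

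At 20 °C the strains did not differ in these collagens beyond the spread of the N2 libraries. Of the 10 members, 7 had a higher and 3 a lower mean in mutants, with ratios of means from 0.77 for *dpy-3* to 1.82 for *bli-1*, and the libraries of the strains overlapped for all 10, beside 21.2% of all genes whose libraries did not. *sqt-1* averaged 3.39 ± 0.945 CPM in mutants and 1.87 ± 2.87 CPM in N2 (SD, n = 4 each), *sqt-3* 9.99 ± 2.04 CPM in mutants and 8.22 ± 6.65 CPM in N2, and *bli-2* 2.57 ± 1.16 CPM in mutants and 1.89 ± 3.30 CPM in N2. Of the 7 members tested (*dpy-3*, *dpy-7* and *dpy-8* had too few counts), 0 passed the FDR of 0.05 in edgeR, beside 13.5% of all 13127 genes tested. There were 0 at an unadjusted p under 0.05 in edgeR. DESeq2 gave an adjusted p for 7 members, with *dpy-8* among them but not *sqt-1*, and 0 passed. Their log2 fold changes ran from -0.13 for *dpy-10* to 0.88 for *sqt-1*, with SEs from 0.25 to 1.12 and edgeR FDRs from 0.54 to 0.82, and a median of 0.41 beside 0.015 over all genes. The interval for *sqt-1* ran from -1.39 to 3.15, so that large differences in either direction were not detectable.

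This comparison turned on N2 replicate 4. Without that library 4 of the 7 members rose in mutants at 20 °C: *bli-2* with a log2 fold change of 3.24 (SE 0.65, FDR 0.014), *sqt-1* with 2.84 (SE 0.62, FDR 0.020), *bli-1* with 2.30 (SE 0.63, FDR 0.041) and *sqt-3* with 1.01 (SE 0.24, FDR 0.024), all by edgeR. Over all 13306 genes then tested, 8.74% rose. For these 4 genes every mutant library was above N2 replicates 1 to 3. The share of all genes separated in this way was not determined. *bli-2* was at 1.36 to 4.15 CPM in mutants and 0 to 0.578 CPM in N2 replicates 1 to 3, and *bli-1* at 1.52 to 7.46 CPM in mutants and 0.648 to 0.741 CPM in those N2 libraries. *dpy-10* stayed near 0 with a log2 fold change of 0.07, and *rol-6* reached 1.88 without passing (FDR 0.070). Leaving out any one of the other 7 libraries at 20 °C gave 0 calls. Since the library left out was the highest of its group for every member, leaving it out lowers both the N2 mean and the N2 spread.

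**Figure D4:**
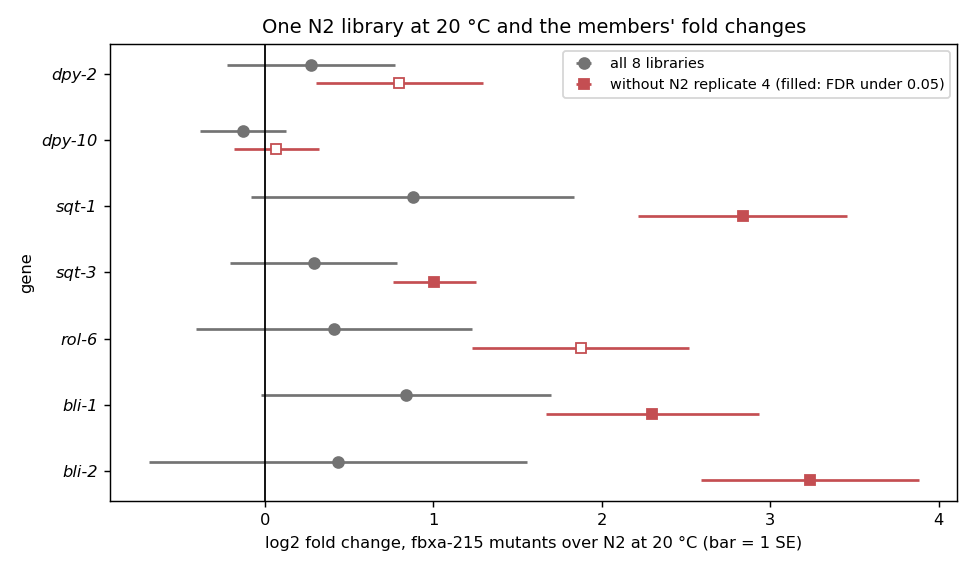
Log2 fold changes of mutants over N2 at 20 °C for the 7 members tested, with all 8 libraries (grey circles) and without N2 replicate 4 (red squares, filled where the FDR was under 0.05). Bars are 1 SE. The point of *bli-2* is at 0.43 with all libraries and at 3.24 without N2 replicate 4, while *dpy-10* stays near 0.

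Between temperatures no member passed the threshold in either strain, and the log2 fold changes of 25 over 20 °C had both signs in N2 and were above 0 for all 10 members in mutants. In N2, *dpy-2* averaged 2.26 ± 0.698 CPM at 25 °C and 1.13 ± 0.702 CPM at 20 °C (SD, n = 4 each), a log2 fold change of 1.01 (SE 0.46, FDR 0.085 in edgeR). *dpy-7* averaged 0.861 ± 0.553 CPM at 25 °C and 0.381 ± 0.608 CPM at 20 °C. *sqt-3* averaged 8.50 ± 3.64 CPM at 25 °C and 8.22 ± 6.65 CPM at 20 °C, and *dpy-10* 2.03 ± 0.328 CPM at 25 °C and 2.38 ± 0.650 CPM at 20 °C. All 10 members were tested, 6 with a log2 fold change above 0 and 4 below. The libraries overlapped for all 10 (they did not for 40.5% of all genes), and 0 passed the FDR of 0.05 in the fit over 15 libraries, beside 45.1% of all 14000 genes tested. At an unadjusted p under 0.05 there was 1 (*dpy-2*), and DESeq2 gave 0 past its adjusted threshold and 1 unadjusted. Without N2 replicate 4 at 20 °C, *dpy-2* (log2 fold change 1.54, FDR 0.016) and *dpy-7* (3.28, FDR 0.0063) were higher at 25 °C by edgeR, as were 23.4% of the 13961 genes then tested, while in a fit of the N2 libraries alone *dpy-2* was (0.99, FDR 0.036), as were 22.5% of the 13174 genes tested in that fit.

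In the mutants all 10 log2 fold changes of 25 over 20 °C were above 0, with a median of 0.84 beside 0.043 over all genes. *sqt-1* averaged 7.74 ± 3.25 CPM at 25 °C (SD, n = 3) and 3.39 ± 0.945 CPM at 20 °C (SD, n = 4), and *rol-6* 3.06 ± 0.959 CPM at 25 °C and 1.37 ± 0.454 CPM at 20 °C. These were the 2 members whose libraries did not overlap between temperatures, beside 17.8% of all genes in this direction. *dpy-7* had the largest log2 fold change, 1.68 (SE 0.81), from 5 to 22 counts at 25 °C and 1 to 9 counts at 20 °C. The strut collagens were close to level: *bli-1* averaged 3.73 ± 2.14 CPM at 25 °C and 3.41 ± 2.73 CPM at 20 °C, and *bli-2* 2.97 ± 3.07 CPM at 25 °C and 2.57 ± 1.16 CPM at 20 °C. In edgeR 0 of 10 passed, with FDRs from 0.14 to 0.91, beside 25.5% of all genes tested, and there were 0 at an unadjusted p under 0.05 and 0 in DESeq2. In a fit of the mutant libraries alone, *sqt-1* (1.13, FDR 0.024), *sqt-3* (0.82, FDR 0.029) and *rol-6* (1.12, FDR 0.032) rose at 25 °C, 3 of the 8 members tested in that fit, beside 10.5% of its 13560 genes. Without mutant replicate 3 at 20 °C, *dpy-2* rose (1.40, FDR 0.029), beside 11.3% of the 13958 genes then tested.

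Whether the difference between strains changed with temperature was tested as the interaction of genotype and temperature. For 0 of the 10 members did the interaction pass an FDR of 0.05 in edgeR (FDRs from 0.45 to 0.95), beside 1.46% of all 14000 genes tested, and there were 0 at an unadjusted p under 0.05. DESeq2 gave an adjusted p for 3 members, and 0 passed. The largest estimates were 1.56 for *dpy-3* (SE 1.24) and 1.49 for *sqt-1* (SE 1.36) on the log2 scale. Without N2 replicate 4 at 20 °C the estimate for *sqt-1* was -0.50. The differences of *sqt-1* and *sqt-3* between strains were therefore not shown to depend on temperature.

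The 12 other collagens with body shape phenotypes (11 tested) had the same tendency. At 25 °C 1 of them rose in mutants, *lon-3*, a collagen whose loss makes animals long: it was at 3.93, 6.95 and 1.76 CPM in mutants, against 1.52, 0.909, 1.57 and 0.466 CPM in N2, a log2 fold change of 1.90 (SE 0.49, FDR 0.035). This 1 call among 11 stood beside 6.97% of all genes tested that rose. The median of the 11 at 25 °C was 1.03, with 9 above 0, and their summed level was 284 to 306 CPM in mutants, against 87.8 to 234 CPM in N2. The largest part of that sum was *ram-2*, at 115 to 129 CPM in mutants and 53.7 to 102 CPM in N2. Its log2 fold change was 0.64, without passing (FDR 0.13). At 20 °C 0 of 11 passed, with a median of 0.44 and summed levels of 115 to 229 CPM in mutants and 57.1 to 236 CPM in N2, where replicate 4 was again the highest. Without that library 3 of the 11 rose, beside 8.74% of all genes then tested. Between temperatures, *ram-2* was the collagen of this list that rose at 25 °C, by 1.02 in N2 (FDR 0.024) and by 1.07 in mutants (FDR 0.036). Over all 14000 genes tested, 3218 rose in N2 and 1905 in mutants. The adult stage collagens *col-7*, *col-19* and *col-62* were far more abundant, summing to 1361 to 3062 CPM, and *col-7* rose in mutants at 20 °C by 1.47 (SE 0.35, FDR 0.039), with 184.5, 252, 126 and 276 CPM in mutants, against 59.3, 51.4, 81.4 and 115 CPM in N2. It was 1 of 3 tested, beside 1012 of all 13127 genes tested that rose at 20 °C.

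Genes that modify or cleave collagen gave no calls between strains, and 2 of the genes that cross-link it rose in mutants at 25 °C. Of the 12 genes of collagen biosynthesis and processing (prolyl hydroxylase subunits, chaperones, prolyl isomerases and processing proteases), 10 were tested between strains and 0 passed at either temperature. Of the 5 genes of cuticle cross-linking, the peroxidase gene *mlt-7* (0.56, FDR 0.0047) and the tetraspanin gene *tsp-15* (0.81, FDR 0.0066) rose in mutants at 25 °C, beside the 6.97% of all genes tested that rose, and 0 passed at 20 °C. *tsp-15* was at 8.22, 10.3 and 10.3 CPM in mutants and 4.59 to 5.96 CPM in N2 at 25 °C. Both products work with the dual oxidase BLI-3, which forms tyrosine cross-links between cuticle proteins. Among 9 epidermal transcription factors, *myrf-1*, a membrane-bound factor of larval development, fell in mutants at 20 °C by 0.71 (SE 0.15, FDR 0.016), and 0 passed at 25 °C. Over all 13127 genes tested at 20 °C, 757 fell.

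Of the 10 moulting genes 0 passed between strains at either temperature, with medians of 0.49 at 25 °C and 0.0026 at 20 °C and summed levels of 132 to 160 CPM in mutants and 132 to 161 CPM in N2 at 25 °C. At 20 °C they summed to 118.9 to 132 CPM in mutants and 118 to 140 CPM in N2. Most of each sum was *lrp-1* and *nas-37*, at 69.1 and 33.7 CPM in N2 replicate 4 at 20 °C. In that library *mlt-8* was at 3.94 CPM, against 0.906 to 1.11 CPM in the other N2 libraries at 20 °C. *mlt-10* was at 9.57 CPM there, against 3.87 to 5.56 CPM, and *mlt-11* at 3.94 CPM, against 0.555 to 1.01 CPM. *lrp-1* and *fbn-1* were not highest in that library. In the DBL-1 pathway, which sets body size by TGF-β signalling to the epidermis and acts on cuticle collagen genes, *sma-9* rose in mutants at 25 °C by 0.48 (SE 0.08, FDR 0.0035) and 0 of 12 passed at 20 °C. *sma-9* was 1 of 12 tested at 25 °C, beside 6.97% of all genes tested that rose. Of the 10 genes known to respond to furrow damage, 0 of 7 tested passed at 25 °C, and at 20 °C 1 of 8 did, *gst-4*, a glutathione S-transferase gene, which fell by 0.29 (FDR 0.038), beside 757 of all 13127 genes tested that fell. The epidermal antimicrobial peptide gene *nlp-31* of that list was lower at 25 than at 20 °C, by 1.08 in mutants (FDR 0.0016) and 0.84 in N2 (FDR 0.0020). The myo-inositol transporter gene *hmit-1.1* was higher at 25 °C, by 2.45 in mutants (FDR 4.2e-05) and 2.84 in N2 (FDR 6.7e-06), all in the edgeR fit of 15 libraries. Between temperatures 25.5% of all genes tested passed in mutants and 45.1% in N2.

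**Figure D5:**
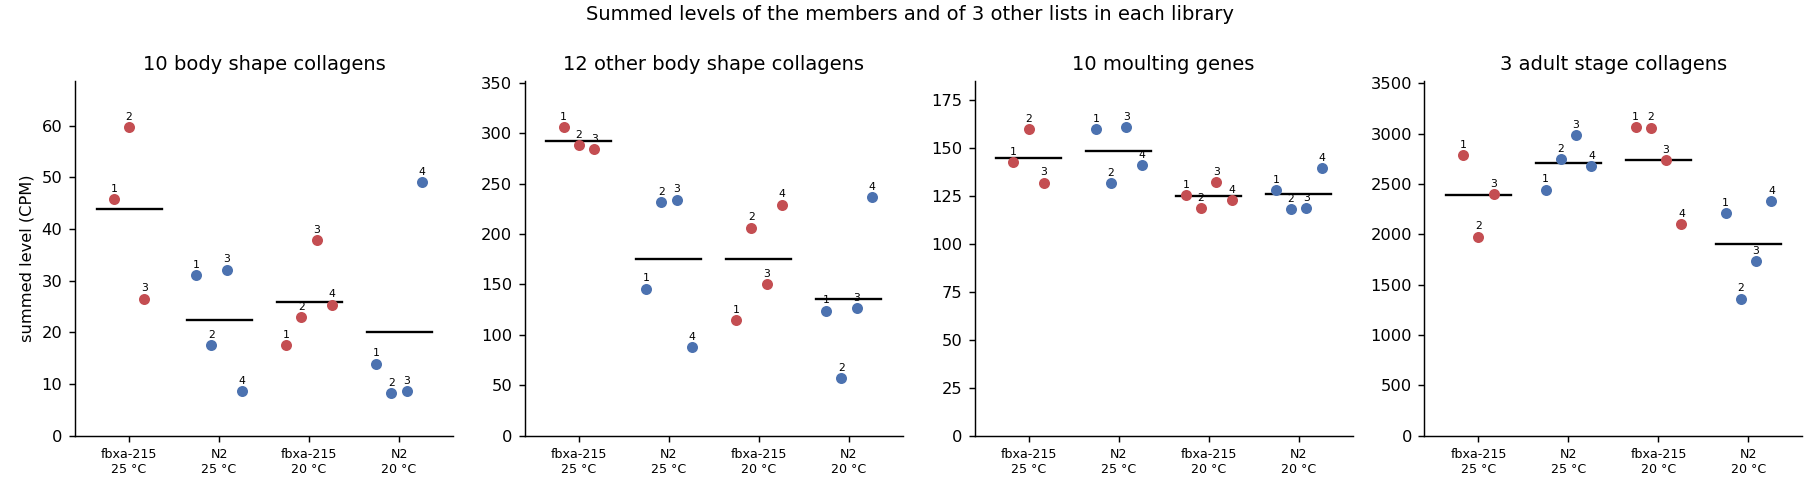
Summed level in CPM of the 10 members and of 3 other lists in each library, on axes that start at 0. Points are libraries numbered by replicate, red for mutants and blue for N2, and lines are group means. The members sum to 26.5 to 59.7 CPM in mutants and 8.63 to 32.1 CPM in N2 at 25 °C, and to 17.5 to 37.9 CPM in mutants and 8.24 to 49.1 CPM in N2 at 20 °C.

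Markers of other tissues moved with strain and temperature as well. The counts below stand beside those over all genes tested. At 25 °C 6.97% of all genes rose in mutants and 5.12% fell, and at 20 °C 1012 of 13127 rose and 757 fell. Of the 7 epidermis markers 6 were found, and 1 of these, *wrt-2*, was at 0 in 1 library and at most 0.871 CPM. The list summed to 229.5 to 297 CPM in mutants and 209 to 228.6 CPM in N2 at 25 °C, apart by little. *ajm-1*, a component of epithelial junctions, rose by 0.44 (SE 0.09, FDR 0.0071) as 1 of 5 tested. Of these 5, 3 had a log2 fold change above 0, while *lin-26* (-0.096) and *che-14* (-0.20) were below 0. At 20 °C the list summed to 221 to 269.6 CPM in mutants and 206 to 270.2 CPM in N2, with 0 of 4 past the threshold. N2 replicate 4 had the lowest sum of its group. Most of that sum was *ajm-1* (103.6 CPM) and *lin-26* (76.7 CPM), each lowest in that library. *wrt-10* was highest there, at 1.29 CPM against 0.361 to 0.577 CPM in the other N2 libraries at 20 °C. So were *wrt-2*, at 0.402 CPM against 0 to 0.165 CPM, and, by little, *che-14*, while *elt-3* lay within the range of the others. Body wall muscle markers summed to 5542 to 6065 CPM in mutants and 3728 to 4918 CPM in N2 at 25 °C, where 2 of 4 rose, and overlapped at 20 °C with 0 of 4. Oocyte and eggshell markers were lower in mutants: 2 of 8 fell at 25 °C, where they summed to 3337 to 3498 CPM in mutants and 3490 to 4320 CPM in N2, and 6 of 8 fell at 20 °C, where they summed to 3670 to 4037 CPM in mutants and 4695 to 5746 CPM in N2. Of the intestine markers 4 of 7 rose and 1 fell at 25 °C and 2 rose at 20 °C, of the neuron markers 2 of 4 rose at 25 °C and 0 passed at 20 °C, and of the germline markers 1 of 4 fell at each temperature. The part of these shifts in tissue markers in the values of the collagens was not tested.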

How the data were processed

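Polyadenylated RNA of 15 samples of whole young adults was sequenced as non-stranded paired-end libraries. The authors trimmed the reads with Trimmomatic (version 0.39) and quantified them with salmon (version 1.5.1), and the deposited tables hold estimated counts per gene without normalization, 7.18% to 14.9% of them fractional. The deposited tables of the authors' DESeq2 comparison gave only the gene symbols; their fold changes, adjusted p-values and log2 expression values were not used. The genome build is WBcel235, and the transcriptome release is not given in the sources used here. Each value column matched 1 sample's label (0 columns left over). Libraries held 10842750 to 28391911 counts, which sets the floor of 3 counts at 0.103 to 0.278 CPM. No 2 replicates agreed within sampling noise (chi-square per degree of freedom 4.19 to 34.2).

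Estimated counts were rounded and fitted with edgeR (version 4.0.16, R 4.3.3): TMM factors, filterByExpr (minimum count 10, total 15), robust quasi-likelihood F-test, mutants over N2 within each temperature, and 1 fit of 15 libraries for the temperature contrasts and the interaction. FDRs were adjusted over all genes tested, and a call is an FDR under 0.05. SEs were derived from the log2 fold change and its F statistic and are, like the 95% intervals, approximate. CPM values use the TMM factors of the 15 libraries, log2 values a pseudocount of 0.25 CPM. Coding lengths and positions came from the Ensembl annotation of WBcel235. The members and gene lists were chosen with earlier results of these data known, and 1 of 115 listed symbols, an epidermis marker, was not found. Named genes are all members, list genes past an FDR of 0.05 between strains or with the smallest FDRs between temperatures, the 5 genes most like the members, and *fbxa-215*. *ram-2*, *hmit-1.1*, *nlp-31* and the markers follow this rule, and other collagens named for replicate 4 were chosen after their values were seen. Alternatives were relative log expression factors, library size alone, no filter, DESeq2 (version 1.42.0), the replicate number as a block, other sets of libraries in the fit, and leaving out each library. The tests were first checked on simulated data.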

Additional observations from a re-analysis of the deposited data

Results flagged for a closer look

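Single libraries stood far from the other libraries of their group for 6 members, in 7 of the 30 groups of 4 libraries examined. The rule flags about 1 group in 20 by chance. As the members varied together from library to library, flags of the same library are not separate observations. The gap between that library and its nearest neighbour took up nearly the whole range of the group. In 6 of the 7 groups the library was N2 replicate 4 at 20 °C: it had 1.206 CPM of *dpy-3*, 1.287 CPM of *dpy-7*, 1.769 CPM of *dpy-8*, 2.171 CPM of *dpy-2*, 5.469 CPM of *bli-1* and 6.836 CPM of *bli-2*. The same library stood apart in this way for 0.964% of all 14000 genes tested. The remaining group was that of the mutants at 20 °C, where replicate 3 had 2.844 CPM of *dpy-2* and the other replicates 0.878 to 0.984 CPM. What set these libraries apart was not tested.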

How the results depend on the processing

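In the comparisons of the strains at each temperature, of the temperatures in each strain and their interaction, relative log expression factors, library size alone, no filter on low counts, DESeq2 and 1 fit of 15 libraries each left 0 members past the threshold and no log2 fold change with another sign. The fit of one strain's libraries alone gave 3 members for 25 over 20 °C in mutants and 1 in N2, where fewer members passed the filter (8 and 6). Replicate numbers did not pair the samples: correlations of same-numbered mutant and N2 libraries ran from -0.30 to 0.21, and 1 of 7 mutant libraries correlated best with its own number. With the replicate number as a block 0 members passed in any comparison, and over all genes 391 were called at 25 °C, against 1634 without it, and 528 at 20 °C, against 1769. The block turned the sign of *dpy-2* for mutants over N2 at 25 °C (-0.088) and, for 25 over 20 °C in N2, of *dpy-3* (0.076), *sqt-1* (0.070) and *bli-2* (0.25). When 1 library was left out, the count of members past the threshold varied. For mutants over N2 at 20 °C it ranged from 0 to 4, 4 without N2 replicate 4. For 25 over 20 °C in N2 it ranged from 0 to 2, 2 without N2 replicate 4 at 20 °C. For 25 over 20 °C in mutants it ranged from 0 to 1, 1 without mutant replicate 3 at 20 °C. It stayed at 0 for mutants over N2 at 25 °C and for the interaction. Among single members, leaving out 1 library changed the sign in 45 values and kept it in 372, none of them past the threshold in the full fit. Leaving out each library in turn gave log2 fold changes for mutants over N2 at 25 °C of *dpy-2* -0.26 to 0.40, *dpy-7* -0.24 to 0.70, *dpy-10* -0.0091 to 0.41 and *bli-2* -0.35 to 1.58. For mutants over N2 at 20 °C the ranges were *dpy-2* -0.30 to 0.80 and *dpy-10* -0.25 to 0.069. For 25 over 20 °C in N2 the ranges were *dpy-3* -0.61 to 0.074, *sqt-1* -0.79 to 1.64, *sqt-3* -0.22 to 0.77, *rol-6* -0.024 to 2.02, *bli-1* -0.024 to 1.88 and *bli-2* -0.93 to 2.54. For 25 over 20 °C in mutants the ranges were *dpy-10* -0.13 to 0.31, *bli-1* -0.41 to 0.86 and *bli-2* -1.04 to 0.72. For the interaction the ranges were *dpy-2* -0.73 to 0.40, *dpy-7* -1.63 to 0.91, *dpy-8* -0.59 to 0.84, *sqt-1* -0.50 to 1.96, *rol-6* -0.91 to 1.14, *bli-1* -1.74 to 0.45 and *bli-2* -2.34 to 1.16. Apart from the library itself, the cause of these changes was not tested. With 0 to 297 counts per member and library, depth limits what the tests of *dpy-3*, *dpy-7* and *dpy-8* could show.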
